A study of Bos taurus with 10 samples.

Results

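Acute phase proteins are secreted defense and transport proteins whose plasma levels change during infection, and the liver is their best known source. Interleukin 6 acting through STAT3, and interleukin 1 and tumor necrosis factor acting through NF-κB and C/EBP factors, switch on their genes. In the lactating udder several of them are also known to be transcribed in the mammary tissue itself and to reach the milk. The udder consists of separate glands, each with its own teat, and the transcripts were followed here in glands that neighbored a gland infected with Escherichia coli. The genes were LBP, SAA3, SAA4, HP, SERPINA1, A2M, PTX3, FGG, ITIH4 and HPX. Every probe set whose only gene symbol in the platform annotation was one of these was taken, whatever its signal, which gave 11 probe sets for 10 genes, out of 24016 on the array when its control probe sets are left aside and 13292 with 1 gene symbol. SERPINA1 had 2 probe sets and each other gene 1.

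Mammary tissue came from 10 primiparous, midlactating German Holstein Frisian cows, 1 array per cow and 5 arrays per group. In the neighboring group, 1 gland of the udder had received 500 CFU of the mastitis strain E. coli 1303, suspended in 2 ml of saline, and the tissue was taken 24 h later from other glands of the same udder. According to the methods, 1 of these other glands had received a saline placebo of 2 ml, and arrays neighboring 1, 2, 3 and 5 were made from pools of a saline-treated and an untreated gland, whereas neighboring 4 was a single untreated gland. These neighboring glands were chosen for the lowest somatic cell counts in milk, and a pair was pooled only where its counts were close. In the healthy group no gland was inoculated, and tissue was also taken at 24 h. Healthy 1, 2 and 4 were pools of a pair of glands and healthy 3 and 5 came from 1 gland each, when the replicate numbers of the labels are read as the animal numbers of the study. Cows of both groups had their estrus synchronized with cloprostenol and were milked out with 20 IU of oxytocin. One label of the healthy arrays calls their source neighboring tissue, whereas their titles and descriptions call them healthy, and the titles were followed. The comparison addresses which acute phase genes differ in tissue that lies in the same udder as the infection but itself received no bacteria. No gland of the healthy group received saline, so saline goes with the group in the pooled neighboring arrays. The part of saline was not tested here.

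The values were log2 RMA values, so a difference of 1 is a doubling of signal, and levels of different probe sets cannot be set against each other. The methods set aside neighboring 5 as a biological outlier, an array whose profile grouped with the healthy ones, and healthy 3 as a technical outlier. The choice of neighboring 5 thus drew on the values themselves. The main fit therefore held 8 arrays, neighboring 1 to 4 and healthy 1, 2, 4 and 5, and a fit of all 10 arrays is given beside it. A probe set was said to rise or fall at a limma adjusted p under 0.05 over all 24016 probe sets. The arrays had medians of 6.25 to 6.27, and any pair of them correlated at 0.971 to 0.992 across probe sets. Precision is limited by how many arrays there were. The mean signal of the hybridization control probe sets, which report bacterial and phage transcripts added in the laboratory, was 10.23, 10.38, 10.20, 10.43 and 10.65 on neighboring arrays 1 to 5, against 10.84, 10.68, 10.64, 10.42 and 10.79 on healthy arrays 1 to 5. Over the 8 arrays they were lower by 0.37 in the neighboring group (exact two-sided permutation test, p = 0.0571, the smallest possible p being 0.0286). Their part in the differences below was not tested, and values with them as a covariate are given beside the results.

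LBP, SAA3, HP, SERPINA1 and A2M rose in the neighboring glands, by between 1.69-fold and 4.41-fold, and none of the 10 genes fell. SAA4, PTX3, FGG, ITIH4 and HPX did not pass the test. In probe sets, 6 of 11 rose on the 8 arrays, where 11.1% of all probe sets rose, and 0 of 11 fell, where 9.21% of all fell. At an unadjusted p under 0.05, 1 of 11 was lower, which was HPX. The median difference was 0.75 over the 11 probe sets and −0.04 over all probe sets. At the threshold of the methods, a limma adjusted p under 0.01 with more than a 2-fold change, 3 of 11 were past it, LBP and both SERPINA1 probe sets, where 1.87% of all probe sets were. The neighboring and healthy groups did not overlap in 5 of 11 probe sets, all higher, where 12.7% of all probe sets were higher without overlap. On all 10 arrays 3 of 11 rose, where 3.86% of all rose, and these were SAA3, HP and A2M. None of the 11 was past the threshold of the methods there, where 0.0708% of all probe sets were. On all 10 arrays 0 of 11 fell, where 3.04% of all fell, and 1 of 11, FGG, was lower at an unadjusted p under 0.05. The median difference on 10 arrays was 0.61 over the 11 probe sets and −0.03 over all. In whole tissue, fewer cells of a type and less RNA per cell cannot be told apart.

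**Figure D1:**
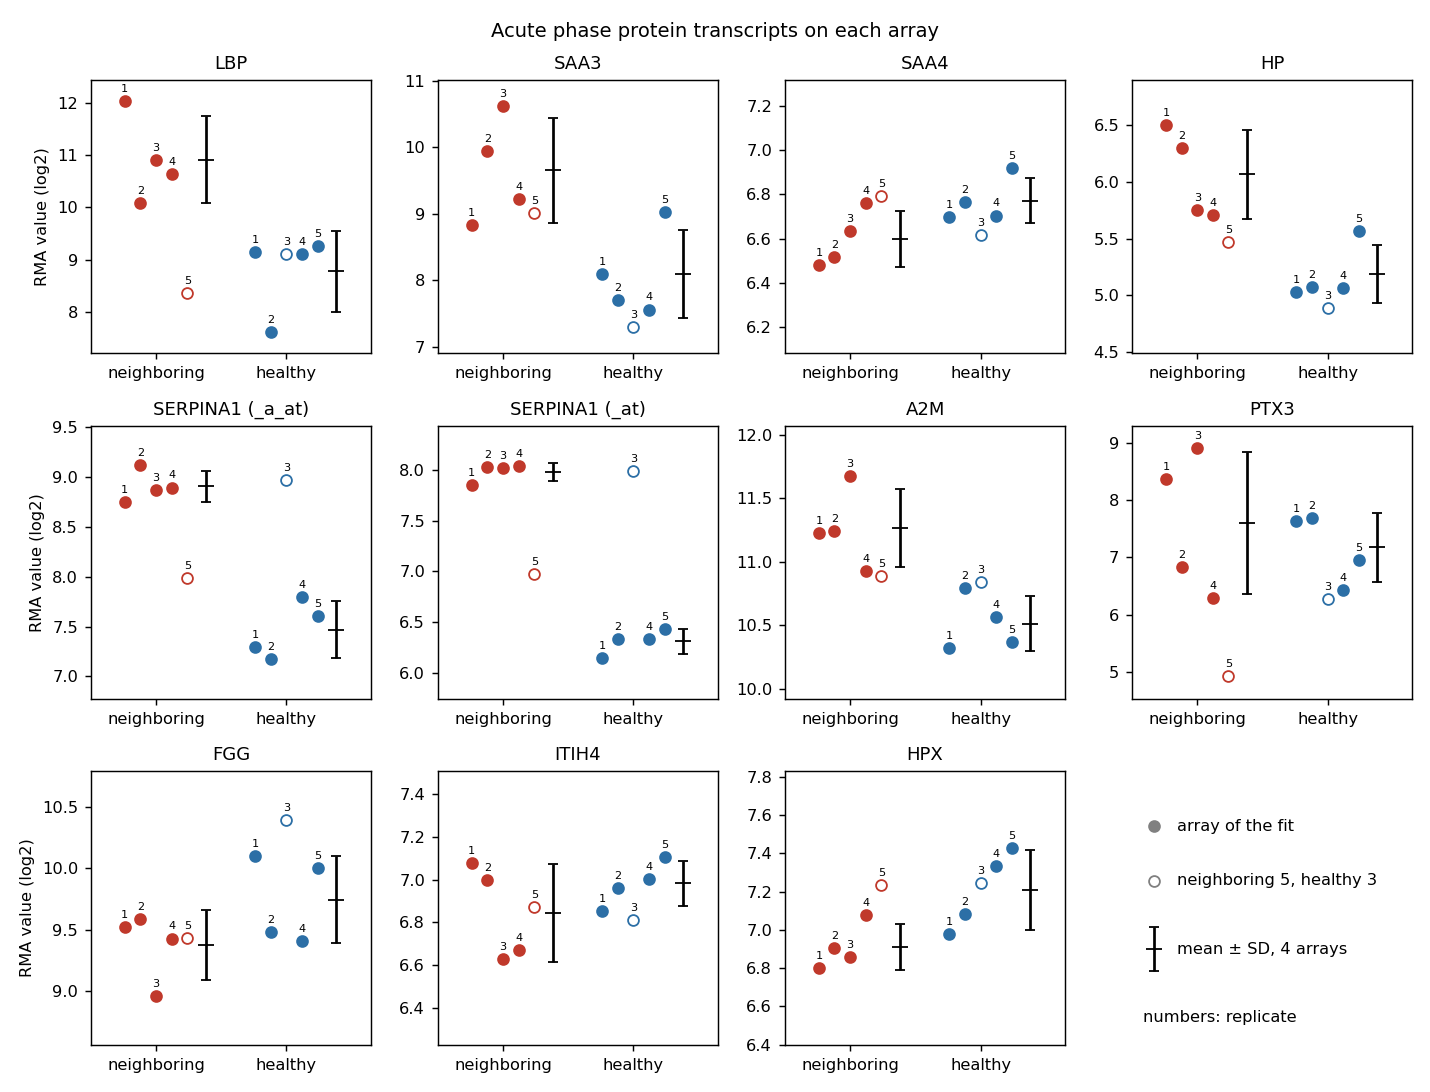
RMA value (log2) of each acute phase probe set on each array, neighboring left of healthy in each panel, with its own vertical axis. Bars mark the mean ± SD of the 4 arrays per group in the main fit, and open symbols mark neighboring 5 and healthy 3, which were set aside. The 4 fitted neighboring arrays lie above the 4 fitted healthy arrays for LBP, HP, both SERPINA1 probe sets and A2M, and with the open symbols the groups overlap in all of these but A2M.

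LBP encodes lipopolysaccharide-binding protein, which picks up endotoxin from Gram-negative bacteria and hands it to CD14 and TLR4. Its probe set gave 12.04, 10.08, 10.91, 10.64 and 8.36 on neighboring arrays 1 to 5, against 9.14, 7.61, 9.11, 9.10 and 9.25 on healthy arrays 1 to 5. Neighboring 1 was the highest of all arrays, healthy 2 the lowest, and neighboring 5 lay below all healthy arrays but healthy 2. Over the 8 arrays LBP averaged 10.92 ± 0.83 in neighboring and 8.78 ± 0.78 in healthy tissue (SD, n = 4 each). The difference was 2.14 ± 0.43 (SE), a 4.41-fold rise, with a 95% interval from 1.20 to 3.08 and a limma adjusted p of 0.00642, and the groups did not overlap. The call was lost when neighboring 5 was put back at full weight. With all 10 arrays the difference was 1.56 ± 0.55 at a limma adjusted p of 0.0938, and with neighboring 5 alone put back it was 1.63 at a limma adjusted p of 0.116. With each of the 10 arrays weighted by its fit it was 1.73 at a limma adjusted p of 0.0194. With the hybridization controls added as a covariate the difference was 1.77 ± 0.75 and did not pass (limma adjusted p = 0.297). The SE was 0.43 without that covariate, whose mean was lower in the neighboring group.

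SAA3 encodes the form of serum amyloid A, an apolipoprotein and opsonin, that is known in cattle for being made in the mammary gland. The SAA3 probe set gave 8.83, 9.94, 10.62, 9.22 and 9.01 on neighboring arrays 1 to 5, against 8.10, 7.70, 7.30, 7.56 and 9.03 on healthy arrays 1 to 5. Healthy 5 stood above the other healthy arrays and above neighboring 1 and neighboring 5, so the groups overlapped, whereas neighboring 2, 3 and 4 lay above every healthy array. The means were 9.65 ± 0.79 in neighboring and 8.09 ± 0.66 in healthy tissue (SD, n = 4 each). SAA3 rose by 1.56 ± 0.39, or 2.94-fold, at a limma adjusted p of 0.0181 and with a 95% interval from 0.71 to 2.41. On all 10 arrays the difference was 1.59 ± 0.37 at a limma adjusted p of 0.0327. Without healthy 4 the difference was 1.38 at a limma adjusted p of 0.0501, and with neighboring 5 alone put back it was 1.43 at 0.0554. With the hybridization signal added as a covariate it was 1.98 ± 0.68 at a limma adjusted p of 0.200. SAA3, SAA2, SAA4 and a near copy of SAA3 named M-SAA3.2 follow each other in this order in the reference gene table of assembly ARS-UCD2.0, and transcripts of near-identical copies may reach the same probes, so the SAA3 signal is uncertain as to the copy.

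SAA4, the serum amyloid A that in humans is made constitutively rather than on inflammation, did not pass the test. Its probe set gave 6.48, 6.52, 6.64, 6.76 and 6.79 on neighboring arrays 1 to 5, against 6.70, 6.77, 6.62, 6.70 and 6.92 on healthy arrays 1 to 5. The groups overlapped, and all 10 values lay within a narrow range. The difference was −0.17 ± 0.10 with a 95% interval from −0.40 to 0.05, and it did not pass (limma adjusted p = 0.250).

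HP encodes haptoglobin, which binds free hemoglobin and withholds its iron, and is a major acute phase protein of cattle. The HP probe set gave 6.50, 6.30, 5.75, 5.71 and 5.47 on neighboring arrays 1 to 5, against 5.03, 5.08, 4.89, 5.07 and 5.57 on healthy arrays 1 to 5. Neighboring 1 and 2 were the highest, and healthy 5 was the only healthy array above neighboring 5. HP averaged 6.06 ± 0.39 in neighboring and 5.19 ± 0.25 in healthy tissue (SD, n = 4 each), without overlap on the 8 arrays. The rise was 0.88 ± 0.19, or 1.84-fold, with a 95% interval from 0.46 to 1.30 and a limma adjusted p of 0.00985. It was 0.82 ± 0.19 on all 10 arrays (limma adjusted p = 0.0349), but 0.76 with neighboring 5 alone put back (limma adjusted p = 0.0591). With the hybridization covariate it was 0.94 ± 0.34 (limma adjusted p = 0.229). HP was the only one of the 11 probe sets whose mean over the arrays fell among the lowest 40% of all probe sets, below 5.71, where RMA compresses differences.

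HPX encodes hemopexin, which binds free heme. Its probe set gave 6.80, 6.91, 6.86, 7.08 and 7.24 on neighboring arrays 1 to 5, against 6.98, 7.09, 7.24, 7.33 and 7.43 on healthy arrays 1 to 5. Neighboring 1, 2 and 3 lay below every healthy array and neighboring 4 and 5 lay among them. The difference was −0.30 ± 0.12 with a 95% interval, not adjusted for the number of probe sets, from −0.56 to −0.03, and the limma adjusted p was 0.107.

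SERPINA1 encodes alpha-1-antitrypsin, the main plasma inhibitor of neutrophil elastase. One probe set, here called SERPINA1 _at by the ending of its name, gave 7.85, 8.03, 8.02, 8.04 and 6.97 on neighboring arrays 1 to 5, against 6.14, 6.33, 7.99, 6.34 and 6.44 on healthy arrays 1 to 5. The other, SERPINA1 _a_at, gave 8.75, 9.12, 8.87, 8.89 and 7.99 on neighboring arrays 1 to 5, against 7.30, 7.17, 8.97, 7.80 and 7.61 on healthy arrays 1 to 5. Both showed the same picture: neighboring 1 to 4 lay close together and high, healthy 1, 2, 4 and 5 were low, healthy 3 stood at the level of neighboring 1 to 4, and neighboring 5 lay between. SERPINA1 _at averaged 7.98 ± 0.09 in neighboring and 6.31 ± 0.12 in healthy tissue (SD, n = 4 each), a rise of 1.67 ± 0.10, or 3.18-fold, with a limma adjusted p of 1.08e-05. SERPINA1 _a_at averaged 8.91 ± 0.15 in neighboring and 7.47 ± 0.29 in healthy tissue (SD, n = 4 each), a rise of 1.44 ± 0.15, or 2.71-fold, with a limma adjusted p of 0.000241. Both probe sets report the same gene and are not independent. With all 10 arrays the differences were 1.13 ± 0.33 and 0.95 ± 0.31, and neither passed (limma adjusted p = 0.0547 and 0.0752). With the hybridization covariate in the 8-array fit, SERPINA1 _at was the only one of the 11 probe sets that still passed. In that fit 0.858% of all probe sets passed in either direction, and SERPINA1 _a_at had 1.26 ± 0.25 at a limma adjusted p of 0.0546.

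A2M encodes alpha-2-macroglobulin, a broad protease inhibitor that traps the enzyme, and is a strong acute phase protein in the rat but not in humans. The A2M probe set gave 11.22, 11.24, 11.67, 10.92 and 10.89 on neighboring arrays 1 to 5, against 10.32, 10.80, 10.84, 10.57 and 10.37 on healthy arrays 1 to 5. Every neighboring array lay above every healthy one, the arrays set aside included. A2M was the only one of the 11 probe sets without overlap on all 10 arrays, where 2.68% of all probe sets were higher without overlap. The means on the 8 arrays were 11.27 ± 0.31 in neighboring and 10.51 ± 0.22 in healthy tissue (SD, n = 4 each), so that A2M rose by 0.75 ± 0.16, or 1.69-fold, with a 95% interval from 0.40 to 1.11 (limma adjusted p = 0.00908). On all 10 arrays the rise was 0.61 ± 0.16 (limma adjusted p = 0.0420). With the hybridization controls added as a covariate the difference was 0.37 ± 0.25 and did not pass (limma adjusted p = 0.555).

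ITIH4, an inter-alpha-trypsin inhibitor heavy chain that is an acute phase protein in pigs and cattle, did not pass the test. The ITIH4 probe set gave 7.08, 7.00, 6.63, 6.67 and 6.87 on neighboring arrays 1 to 5, against 6.86, 6.96, 6.81, 7.00 and 7.10 on healthy arrays 1 to 5. Neighboring 3 and 4 were the lowest of all arrays and the other neighboring arrays lay among the healthy ones. The difference was −0.14 ± 0.12 with a 95% interval from −0.41 to 0.14 (limma adjusted p = 0.450).

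PTX3, the long pentraxin, is an opsonin that many cell types make at a site of inflammation, independently of the liver. Its probe set gave 8.37, 6.84, 8.91, 6.29 and 4.92 on neighboring arrays 1 to 5, against 7.63, 7.69, 6.27, 6.42 and 6.96 on healthy arrays 1 to 5. Neighboring arrays held both the highest values, on neighboring 1 and 3, and the lowest, on neighboring 5, with the healthy arrays in between. The SD among the fitted neighboring arrays, 1.24, was the widest of the 11 probe sets. The difference was 0.42 ± 0.51, with a 95% interval from −0.70 to 1.55 that leaves room for a rise or a fall (limma adjusted p = 0.580). It was −0.01 without neighboring 3 and 0.07 ± 0.63 on all 10 arrays.

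FGG encodes the gamma chain of fibrinogen, the clotting protein that rises in plasma in many species during inflammation. The FGG probe set gave 9.52, 9.59, 8.96, 9.43 and 9.43 on neighboring arrays 1 to 5, against 10.10, 9.48, 10.39, 9.40 and 10.00 on healthy arrays 1 to 5. Healthy 1, 3 and 5 were the highest and neighboring 3 the lowest, and healthy 2 and 4 lay among the neighboring arrays. The difference was −0.37 ± 0.19 with a 95% interval from −0.78 to 0.04 on 8 arrays (limma adjusted p = 0.178), and −0.49 ± 0.19 on all 10 arrays (limma adjusted p = 0.120).

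**Figure D2:**
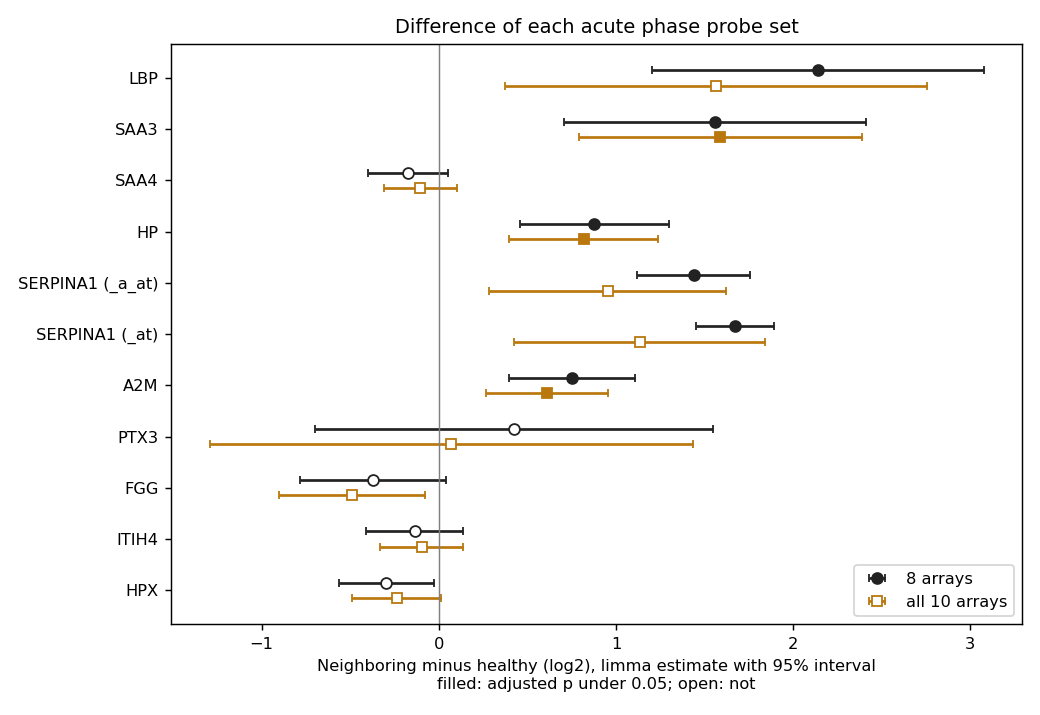
Difference of each probe set, neighboring minus healthy (log2, horizontal axis), as the limma estimate with its 95% interval, for the 8 arrays (circles) and all 10 arrays (squares). Filled symbols have an adjusted p under 0.05. LBP has the highest estimate on 8 arrays, 2.14, and SERPINA1 loses its narrow interval when the arrays set aside are put back.

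The arrays set aside did not behave alike across the genes. Neighboring 5 was the lowest of its group in 5 of the 6 probe sets that rose, the exception being SAA3. Set against the mean of healthy 1, 2, 4 and 5, it was −0.41 for LBP but 0.92 for SAA3, 0.66 and 0.52 for the SERPINA1 probe sets, 0.38 for A2M and 0.28 for HP. It was thus above the healthy mean in every one of these genes except LBP, and further below it for PTX3 than any other array, at −2.26. Healthy 3 was above the same mean by 1.68 and 1.50 for the SERPINA1 probe sets, yet at −0.79 for SAA3 and −0.29 for HP. Healthy 3 is the array that the methods called a technical outlier. Healthy 5, which stayed in the fit, was the highest healthy array in 3 of the 6 probe sets, LBP, SAA3 and HP, and was made from a single gland. The part of pooling in these values was not tested.

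**Figure D3:**
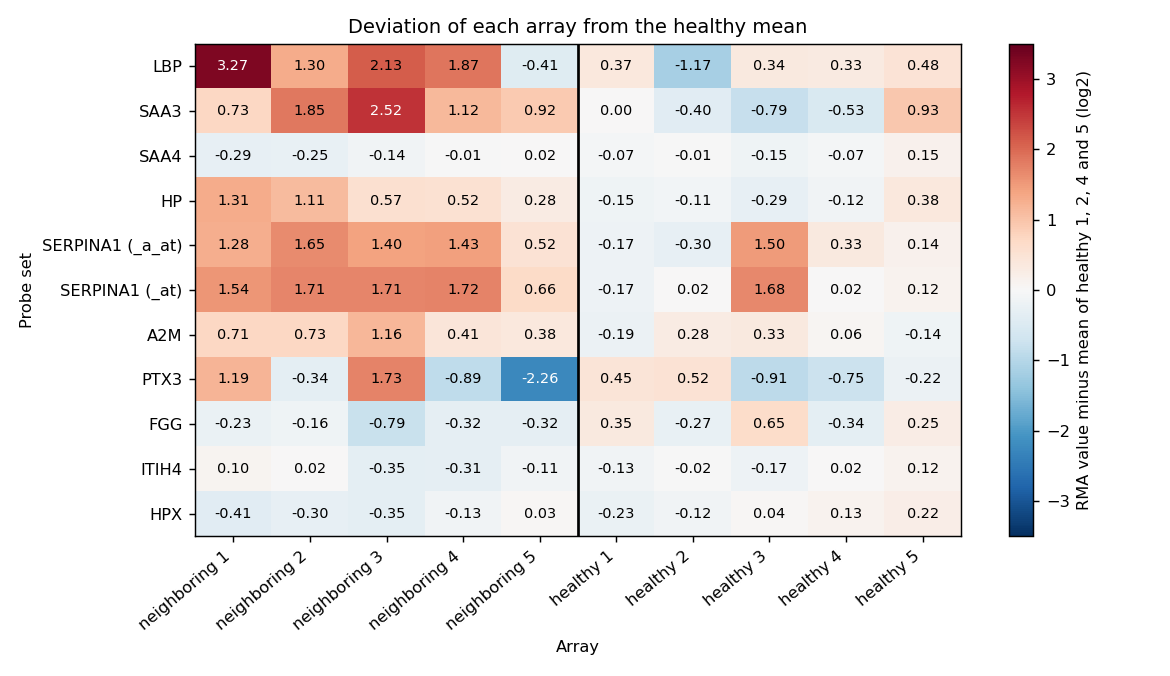
RMA value of each probe set (rows) on each array (columns, neighboring left of healthy) minus the mean of healthy 1, 2, 4 and 5 (log2, color scale, with the value in each cell). Neighboring 1 has the highest LBP, at 3.27, neighboring 3 the highest SAA3, at 2.52, and healthy 3 the SERPINA1 level of the neighboring arrays.

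The genes that rose did so in different orders over the cows. LBP was highest on neighboring 1, where SAA3 was the lowest of its group, whereas SAA3 was highest on neighboring 3. After each probe set was centred on its own mean over the 10 arrays, the root mean square distance between LBP and SAA3 was 1.08, against a spread of 1.24 for LBP and 1.02 for SAA3 themselves. Of the other acute phase genes, HP was nearest to SAA3, at 0.74, and HP and both SERPINA1 probe sets lay about equally far from LBP, at 0.90 to 0.91. Over all named genes outside the 10, those nearest to LBP were MT2A, a metal-binding metallothionein, at 0.48, SNX10, a sorting nexin, at 0.48, PCK2, the mitochondrial phosphoenolpyruvate carboxykinase, at 0.52, LOC507615 at 0.56 and ITGAV, the integrin alpha V chain, at 0.57. Those nearest to SAA3 were CP, the copper carrier ceruloplasmin and itself an acute phase protein, at 0.45, CXCL8, the neutrophil-attracting chemokine interleukin 8, at 0.52, NUPR1, a stress-induced nuclear protein, at 0.53, BLOC1S2 at 0.54 and CEBPG, a C/EBP family factor, at 0.54. These distances describe 10 arrays that share the group difference and carry no test.

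Among 32 other positive acute phase genes 18 were measured, of which 5 rose, 1 fell and 12 did not pass, with a median difference of −0.11 against −0.04 over all probe sets. The share of all probe sets that passed was 20.3%, 11.1% higher and 9.21% lower. CFI, the complement protease that inactivates C3b, averaged 7.13 ± 0.47 in neighboring and 5.34 ± 0.39 in healthy tissue (SD, n = 4 each), a rise of 1.79 ± 0.24 at a limma adjusted p of 0.000874. CFB, the protease of the alternative complement pathway, averaged 8.50 ± 0.81 in neighboring and 7.11 ± 0.20 in healthy tissue (SD, n = 4 each), a rise of 1.38 ± 0.32 (limma adjusted p = 0.0125). C4BPA, an inhibitor of the classical complement pathway, rose by 1.43 ± 0.23 and CP by 1.56 ± 0.31 (limma adjusted p = 0.00222 and 0.00652). Like HP, the CP probe set lay among the lowest 40% of probe sets, where RMA compresses differences. The fifth was SERPING1, the C1 inhibitor, with 0.52 ± 0.15 (limma adjusted p = 0.0349), named after its value was seen. The other complement genes of the list did not pass, with C3 at 0.46 ± 0.28, C9 at −0.19 ± 0.13 and MBL2 at −0.06 ± 0.13. The gene that fell was CD14, the endotoxin receptor, by 1.08 ± 0.26 on the log2 scale (limma adjusted p = 0.0162). On all 10 arrays, where 3.86% of all probe sets rose and 3.04% fell, CFI, CFB and SERPING1 rose and CD14 fell. With the hybridization covariate 0 of the 18 passed in limma, where 0.858% of all probe sets passed, and 4 had an unadjusted p under 0.05. These 4 were CFI at 1.34, CP at 1.96, C4BPA at 1.17 and APCS, named after its value was seen, at −0.44. The lowest limma adjusted p was 0.121. With that covariate SERPING1 was at 0.56, CFB at 1.003 and CD14 at −0.997. Of the negative acute phase genes, whose plasma proteins decline in inflammation, 7 of 7 were measured and 0 passed on either set of arrays, although 3 had an unadjusted p under 0.05 in limma on 8 arrays and 1 on 10. All 7 differences were below 0, as were 56.0% of those of all probe sets, between −0.99 for TTR, the thyroid hormone carrier transthyretin, and −0.04 for AHSG, with a median of −0.31. TTR was at −0.33 ± 0.55 on all 10 arrays.

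Of 25 regulators of the acute phase response 21 were measured, of which 3 rose, 1 fell and 17 did not pass, with a median of 0.15. These 4 of 21 are a share close to the 20.3% of all probe sets that passed, so the count is no result about the regulators, and single genes are given for their own values. STAT3, the factor that carries the interleukin 6 signal to the acute phase genes, averaged 10.59 ± 0.59 in neighboring and 9.42 ± 0.16 in healthy tissue (SD, n = 4 each), a rise of 1.17 ± 0.24 (limma adjusted p = 0.00735). CEBPD, a C/EBP factor induced in inflammation, rose by 0.83 ± 0.21 and OSMR, the receptor chain for oncostatin M, by 0.81 ± 0.17 (limma adjusted p = 0.0208 and 0.00909). NR3C1, the glucocorticoid receptor, fell by 0.86 ± 0.19 on the log2 scale (limma adjusted p = 0.0110). The cytokine transcripts themselves, named after their values were seen, did not pass: IL6 was at 0.38 ± 0.21, IL1B at −0.06 ± 0.14 and TNF at 0.15 ± 0.14. Like HP, all 3 lay among the lowest 40% of probe sets, where RMA compresses differences. On all 10 arrays 0 of 21 regulators passed in limma, where 6.9% of all probe sets passed, and 3 had an unadjusted p under 0.05. With the hybridization covariate 0 passed, where 0.858% of all probe sets passed, and 2 had an unadjusted p under 0.05. These 2 were NR3C1 at −1.04 and NFKBIA, named after its value was seen, at 0.94. With that covariate STAT3 was at 0.84, CEBPD at 0.74 and OSMR at 0.41. Among 15 receptors and partners of the acute phase proteins 10 were measured, 2 fell and 0 rose, where 9.21% of all probe sets fell and 11.1% rose, with a median of 0.04 and 4 at an unadjusted p under 0.05. Besides CD14 it was CD36, a scavenger receptor that binds serum amyloid A, which fell by 0.42 ± 0.10 on the log2 scale (limma adjusted p = 0.0134), and both also fell on all 10 arrays. With the hybridization covariate neither passed, CD36 being at −0.45 (limma adjusted p = 0.263). TLR4, to which LBP and CD14 deliver endotoxin, was at 0.19 ± 0.11 and did not pass (limma adjusted p = 0.248).

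**Figure D4:**
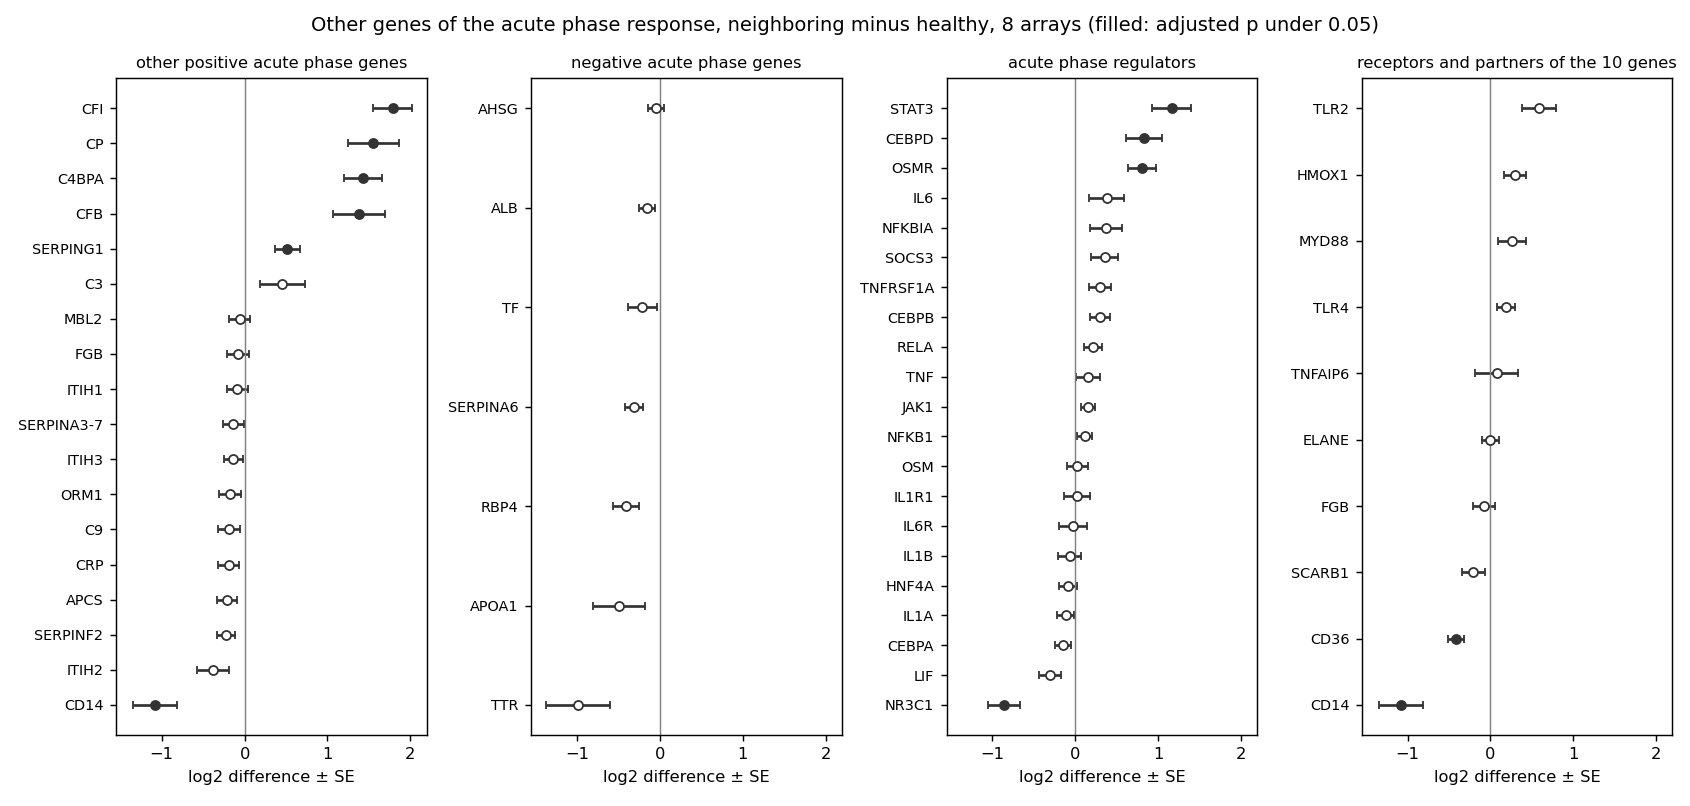
Difference of each measured gene in the 4 pathway lists, neighboring minus healthy (log2), on the 8 arrays, 1 probe set per gene, with the SE as bars. Filled points have an adjusted p under 0.05. CFI, at 1.79, lies furthest to the positive side and CD14, at −1.08, furthest to the negative side.

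Markers of the cell types that the tissue could hold are counted here on the 8 arrays, with summed signals ranging over all 10. Such sums are set by their brightest probe sets. Of all probe sets 11.1% rose and 9.21% fell on 8 arrays, and 3.86% rose and 3.04% fell on all 10. Of 10 mammary epithelium markers 1 rose, EPCAM, and 0 fell, and their summed linear signal was 137757 to 144214 on neighboring and 140806 to 147643 on healthy arrays, and their mean log2 value 12.24 to 12.46 on neighboring and 12.10 to 12.29 on healthy arrays. None of the 4 caseins passed, with means between 13.53 and 14.77 in neighboring and 13.62 and 14.68 in healthy tissue, where the highest value on any array was 14.9. Of 10 hepatocyte markers 1 rose, SERPINC1 by 0.39 ± 0.12 but by 0.26 without passing on 10 arrays (limma adjusted p = 0.411), and 0 fell, and their summed signal overlapped, at 1113 to 1399 on neighboring and 1327 to 1779 on healthy arrays. Of 13 neutrophil markers 10 were measured, and 2 rose, S100A8 by 2.42 ± 0.26 and S100A12 by 1.98 ± 0.28 (limma adjusted p = 0.000339 and 0.00106). The summed signal of the 10 measured neutrophil markers was 548 to 1159 on neighboring and 308 to 393 on healthy arrays. The other 8 markers did not pass. They were S100A9, at 0.17 ± 0.11 (limma adjusted p = 0.258), the granule genes ELANE, MPO, CAMP and MMP9, the genes CATHL1 and CATHL2, and the receptor CXCR1. S100A9 and MPO had 2 probe sets each. Only the brighter is counted here, so these values do not cover the other. CXCR1 averaged 4.45 in neighboring and 4.49 in healthy tissue and MPO 5.35 in neighboring and 5.60 in healthy tissue, and RMA values have no zero that would show absence. Of 9 macrophage markers 6 were measured, 3 fell and 0 rose (2 and 0 on all 10 arrays), and their summed signal was 2209 to 3296 on neighboring and 3853 to 4318 on healthy arrays. The mean log2 value of the macrophage markers overlapped, at 8.06 to 8.57 on neighboring and 8.54 to 8.94 on healthy arrays. Of 8 lymphocyte markers 7 were measured, 4 fell and 0 rose, at 401 to 776 on neighboring and 616 to 732 on healthy arrays, while on all 10 arrays 0 passed in limma, with 2 at an unadjusted p under 0.05. Of 8 fibroblast and adipocyte markers 7 were measured, 1 rose and 3 fell (0 and 3 on all 10 arrays). Their summed signal did not overlap, at 3386 to 5945 on neighboring and 6667 to 9322 on healthy arrays. Nor did their mean log2 value, at 7.31 to 7.74 on neighboring and 7.95 to 8.21 on healthy arrays. Of 6 endothelial markers 0 passed in limma, with 2 at an unadjusted p under 0.05. The endothelial summed signal overlapped, at 1141 to 1662 on neighboring and 1039 to 1552 on healthy arrays. The part of these cell types in the acute phase values was not tested, and the arrays do not show which cells held the transcripts.

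**Figure D5:**
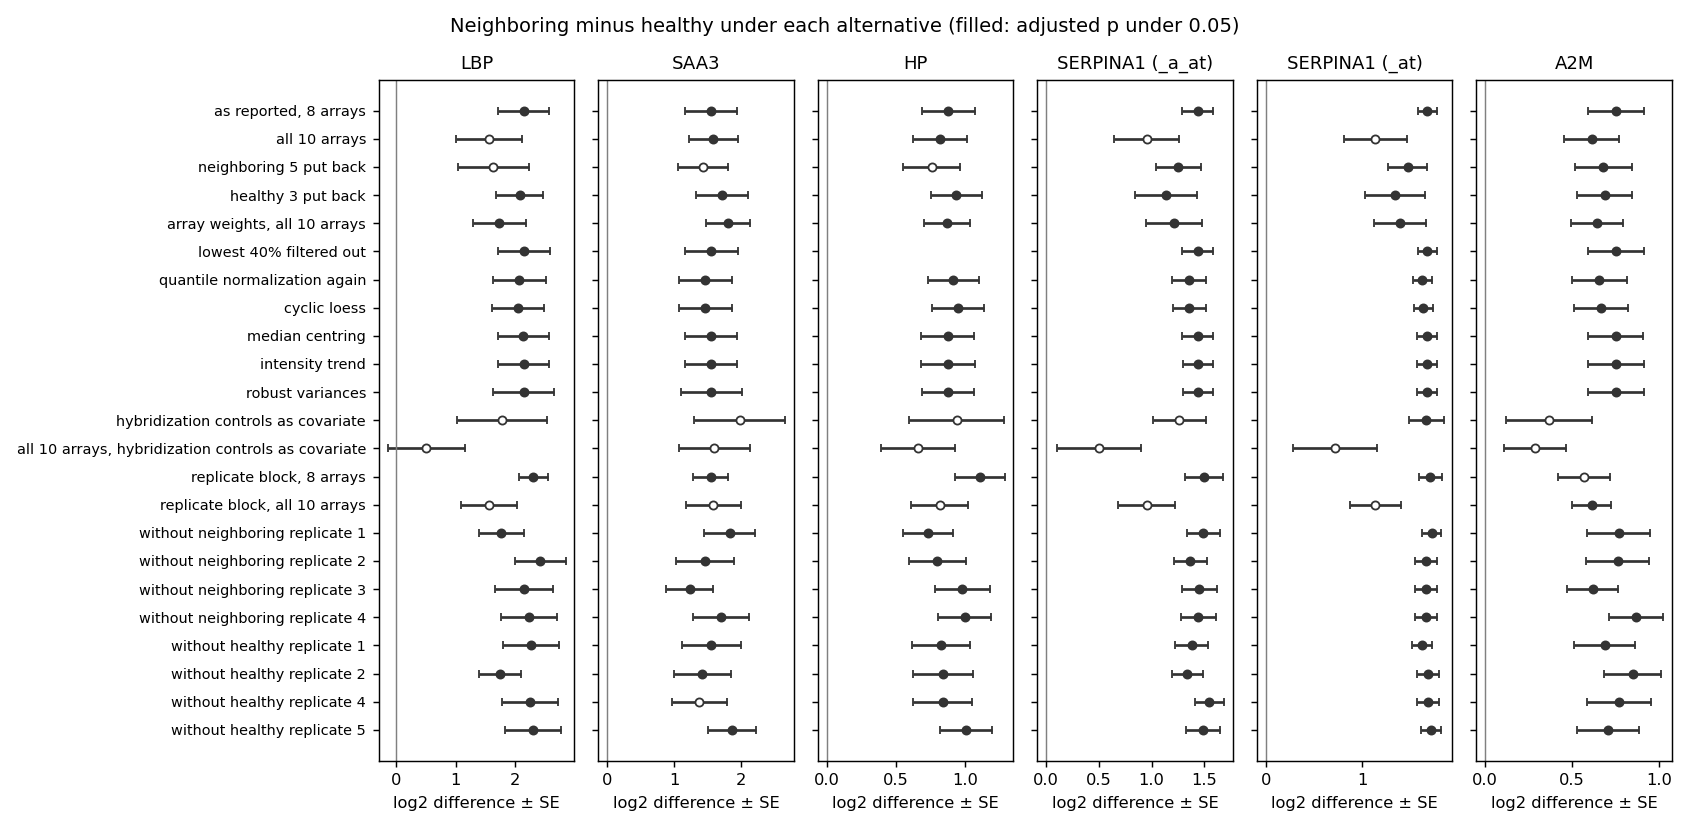
Difference of the probe sets that rose, neighboring minus healthy (log2, horizontal axis), under each way of processing (rows). Bars are the SE and filled symbols have an adjusted p under 0.05. All differences stay above 0, and every lost call lies in a setting with neighboring 5 or the hybridization controls, except A2M with the replicate block on 8 arrays and SAA3 without healthy 4.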

How the data were processed

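Mammary RNA was amplified, labelled and measured on Affymetrix bovine arrays. The deposited values are log2 signals of probe sets, which the authors computed by RMA (background correction, quantile normalization over arrays, summary over probes). The submitters' processing notes name RMA, and the version is not given in the sources used here. Normalization of this kind hides a change shared by most transcripts. The 112 array control probe sets were left out, 86 probe sets with several symbols and 10638 without a symbol in the table used here were tested but not named, and all 10 genes matched the reference gene table, which was used only for names and gene order.

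Differences were fitted with limma 3.58.1 in R 4.3.3 (lmFit, eBayes, Benjamini-Hochberg over 24016 probe sets). Test, arrays and the stricter threshold followed the methods of the study. Their filter on present calls needs probe-level signals, not used here, so no filter was applied. SE is the moderated standard error. Cows are separate animals and 0 pairs of arrays were identical. Lists of pathway genes and of markers of 7 cell types used the brightest probe set per gene. Named genes were all 10 genes, the up to 4 genes of each pathway list that passed and changed most, and the 5 nearest to LBP and to SAA3. The genes, lists and tests were chosen with earlier results of these data known. Alternatives covered arrays entered, filter, scaling, variance model, array weights, hybridization controls, the replicate number as a block, the choice of probe set for a gene and each array left out in turn. On simulated arrays the fit was tested for recovery of known changes.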

Additional observations from a re-analysis of the deposited data

Results flagged for a closer look

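In 5 of 22 sets of arrays (11 probe sets in 2 groups of 5), 1 array stood far from the other 4. Chance alone marks about 1 in 20 such sets, and each is given as a value. For SERPINA1 _at neighboring 5 stood at 6.97, with the next neighboring array at 7.85, and healthy 3 at 7.99, with the next healthy array at 6.44. These are the 2 arrays that the methods set aside. For LBP, healthy 2 stood at 7.61, below the next healthy array at 9.10. For HP, healthy 5 stood at 5.57, above the next healthy array at 5.08. For FGG, neighboring 3 stood at 8.96, below the next neighboring array at 9.43.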

How the results depend on the processing

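The number of the 11 acute phase probe sets that rose, 6 in the main fit, was 3 on all 10 arrays, 3 with neighboring 5 put back, 1 with the hybridization controls as a covariate, 1 with the replicate number as a block on 10 arrays and 0 on 10 arrays with the covariate, a setting chosen after seeing the data. Over all probe sets, 4886 passed in the main fit, against 1657, 834, 206, 962 and 1 under these settings and 1488 with the block on 8 arrays. The number past the threshold of the methods, 3 in the main fit, was 0 on all 10 arrays, 0 with neighboring 5 put back, 1 with healthy 3 put back, 1 with the covariate, 0 with the block on 10 arrays and 0 on 10 arrays with the covariate. It was 2 with the block on 8 arrays and 2 with robust variances. With robust variances LBP had a limma adjusted p of 0.0265 and SAA3 one of 0.0482.

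LBP was 1.56 on all 10 arrays, 1.63 with neighboring 5 put back, 1.77 with the covariate, 1.56 with the block on 10 arrays and 0.51 on 10 arrays with the covariate, and passed in none of these. SAA3 did not pass at 1.43 with neighboring 5 put back, 1.98 with the covariate, 1.59 with the block on 10 arrays and 1.60 on 10 arrays with the covariate. HP did not pass at 0.76, 0.94, 0.82 and 0.66 under the same settings. The SERPINA1 probe sets did not pass at 0.95 and 1.13 on all 10 arrays, with the block there (0.95 and 1.13) or with the covariate there (0.50 and 0.72), nor did SERPINA1 _a_at at 1.26 with the covariate. A2M did not pass at 0.57 with the block on 8 arrays, 0.37 with the covariate and 0.29 on 10 arrays with the covariate. In the block on 8 arrays, neighboring 3 and healthy 5 have no partner of their number. Only replicates 1, 2 and 4 therefore enter the difference there, which lacks neighboring 3, the highest A2M array. Some genes that passed nowhere changed sign: PTX3 was −0.11 with neighboring 5 put back, −0.035 with the covariate, −0.084 with the block on 8 arrays and −1.02 on 10 arrays with the covariate, FGG was 0.23 with the covariate and SAA4 was 0.018 on 10 arrays with it. The cause of these sign changes was not tested. HPX, at −0.37 to −0.14, and ITIH4, at −0.22 to −0.025, passed nowhere and stayed below 0 in every setting. With the filter HP had no value. Scaling, variance model, array weights and the filter changed no call of the other probe sets.

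Of other positive acute phase genes 6 passed in the main fit, against 1 with neighboring 5 put back, 0 with the covariate, 3 with the block on 8 arrays, 2 with it on 10 and 0 on 10 arrays with the covariate. Of regulators 4 passed, against 0 on all 10 arrays, 0 with neighboring 5 put back, 0 with the covariate, 0 and 0 with the block on 8 and 10 arrays and 0 on 10 arrays with the covariate. Of receptors and partners 2 passed, against 0 with neighboring 5 put back, 0 with the covariate, 0 and 1 with the block on 8 and 10 arrays and 0 on 10 arrays with the covariate. Of negative acute phase genes 0 passed, against 1 with healthy 3 put back, 2 with the block on 8 arrays and 1 with the probe set of largest change.

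With each of the 8 arrays left out in turn, 5 to 6 acute phase probe sets rose, 0 fell and 2 to 4 were past the threshold of the methods, and 5 to 7, 0 to 1, 3 to 5 and 2 to 3 genes passed in the other positive, negative, regulator and receptor lists. Of all probe sets, 13.1% to 18.2% passed in either direction in these fits. LBP ran from 1.75 to 2.42, SAA3 from 1.24 to 1.87, HP from 0.73 to 1.00, SERPINA1 from 1.34 to 1.55 and from 1.62 to 1.72, A2M from 0.62 to 0.87, PTX3 from −0.012 to 0.86, FGG from −0.49 to −0.23, ITIH4 from −0.22 to −0.07, HPX from −0.37 to −0.22 and SAA4 from −0.23 to −0.12. SAA3 lost its call without healthy 4 (1.38) and PTX3 changed sign without neighboring 3. Same-numbered arrays come from different cows, and their deviations correlated at −0.14 to 0.20, with 1 of 5 closest to its own number, so the numbers pair no samples.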
